A study of Mus musculus with 4 samples.

Results

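The 9 interferon-inducible GTPase genes described here are the guanylate-binding protein (GBP) genes Gbp2, Gbp3, Gbp5, Gbp6 and Gbp7 and the immunity-related GTPase (IRG) genes Irgm1, Irgm2, Igtp and Iigp1. They were chosen by symbol, with earlier results of these data known, and each was found once among the 54842 genes of the deposited count table. After removal of ribosomal RNA, total RNA was sequenced from untreated mouse embryonic fibroblasts (MEF cells), with 2 libraries of wt (wild-type) cells and 2 of Top2β-null cells, which are labelled as null for the gene of topoisomerase 2β (Top2b). For MEF cells the paper's methods describe a culture medium, and they name none separately for the Top2β-null cells. The study's methods give the Top2β-null cells as a gift from other laboratories, so that genotype and source of the cells cannot be told apart in any value below. The labels do not say whether the libraries of a genotype come from separate cultures, so that p-values measure the spread between these libraries, which may be technical.

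GBP and IRG proteins are dynamin-like GTPases that cells make in response to interferons. They assemble on the membranes of vacuoles that hold bacteria or protozoa, and on bacteria in the cytosol, and help to break them open. Type II interferon acts on their genes through gamma-activated sites (GAS) and through Irf1, and type I interferon acts through interferon-stimulated response elements (ISRE), which Irf9 helps to recognise. Irgm1, Irgm2 and Igtp (also called Irgm3) are the regulatory IRG proteins, which sit on the cell's own membranes and keep the effector IRG proteins such as Iigp1 (Irga6) inactive there.

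The genes lie in clusters on GRCm38 (the assembly also called mm10), with positions from GENCODE M21. Gbp5, Gbp7, Gbp3 and Gbp2 follow each other on the forward strand of chromosome 3, from 142493978, where Gbp5 starts, to 142638008, where Gbp2 ends. Between them, Gbp7 spans 142530342 to 142550149 and Gbp3 142560026 to 142573209. Their identifiers are ENSMUSG00000105504 (Gbp5), ENSMUSG00000040253 (Gbp7), ENSMUSG00000028268 (Gbp3) and ENSMUSG00000028270 (Gbp2). Gbp6 (ENSMUSG00000104713) lies in the second GBP cluster on chromosome 5, on the reverse strand from 105270702 to 105293698. Chromosome 11 holds Irgm1 (ENSMUSG00000046879, 48861968 to 48871683, reverse strand) and, on the forward strand, Igtp (ENSMUSG00000078853, 58199556 to 58207591) and Irgm2 (ENSMUSG00000069874, 58199618 to 58222782).

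To show what the promoters of these genes share, the RefSeq windows (GRCm38.p6) from 250 bases before to 50 after a start site were searched on both strands. The ISRE core was written GAAANNGAAA (TTTCNNTTTC on the other strand) and the GAS TTCNNNGAA, which reads the same on both strands. Windows were given for 7 of the 9 genes, and Gbp6 and Iigp1 had none. All 7 genes held an ISRE core, against 3.99% of all 27025 genes with a window (3.44% of 32851 windows). A GAS was found in 4 of the 7 (Gbp5, Gbp7, Irgm2 and Igtp), against 9.55% of all genes (8.30% of windows). Of the 9 ISRE cores found, 8 began within 100 bases before the start site. The RefSeq start sites can lie inside the longer GENCODE models, as for Gbp5 and Irgm2. The stretches below end at the base before the start site, run 5′ to 3′ on the gene's strand, and have the letters of ISRE cores and GAS in capitals.
Gbp2 (chr3:142620543-142620662, forward strand): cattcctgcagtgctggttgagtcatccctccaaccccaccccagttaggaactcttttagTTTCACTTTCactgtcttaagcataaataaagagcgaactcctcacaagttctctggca
Gbp5 (chr3:142496754-142496933, forward strand): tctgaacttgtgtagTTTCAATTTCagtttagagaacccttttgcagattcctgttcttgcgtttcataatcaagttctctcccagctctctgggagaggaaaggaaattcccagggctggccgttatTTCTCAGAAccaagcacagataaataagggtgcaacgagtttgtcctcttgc
Gbp7 (chr3:142530216-142530335, forward strand): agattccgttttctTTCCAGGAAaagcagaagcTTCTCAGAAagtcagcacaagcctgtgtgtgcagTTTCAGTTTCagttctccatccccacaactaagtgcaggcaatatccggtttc
Irgm1 (chr11:48871421-48871540, reverse strand): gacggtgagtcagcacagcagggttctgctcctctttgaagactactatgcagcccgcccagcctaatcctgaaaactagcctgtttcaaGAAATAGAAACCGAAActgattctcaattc
Irgm2 (chr11:58214857-58214976, forward strand): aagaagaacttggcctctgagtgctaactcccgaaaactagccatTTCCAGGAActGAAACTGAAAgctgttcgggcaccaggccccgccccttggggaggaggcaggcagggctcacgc
Igtp (chr11:58199436-58199555, forward strand): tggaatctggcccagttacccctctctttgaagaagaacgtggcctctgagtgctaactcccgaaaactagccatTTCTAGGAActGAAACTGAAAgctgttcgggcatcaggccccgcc

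In Irgm1 the capitals are 2 overlapping ISRE cores, at -30 and -24 from the start site, and such a pair was also found in Gbp3, at -45 and -39. No ISRE core overlapped a GAS in the 7 genes. In Irgm2 and Igtp the GAS began 11 bases before the ISRE core, and laid over each other at the core, 87 of 90 bases of their printed stretches were identical. The same distance of 11 bases was found in 3 other IRG genes, Tgtp1, Tgtp2 and Gm12185. These are matches of letters and do not show that a factor bound there.

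**Figure D1:**
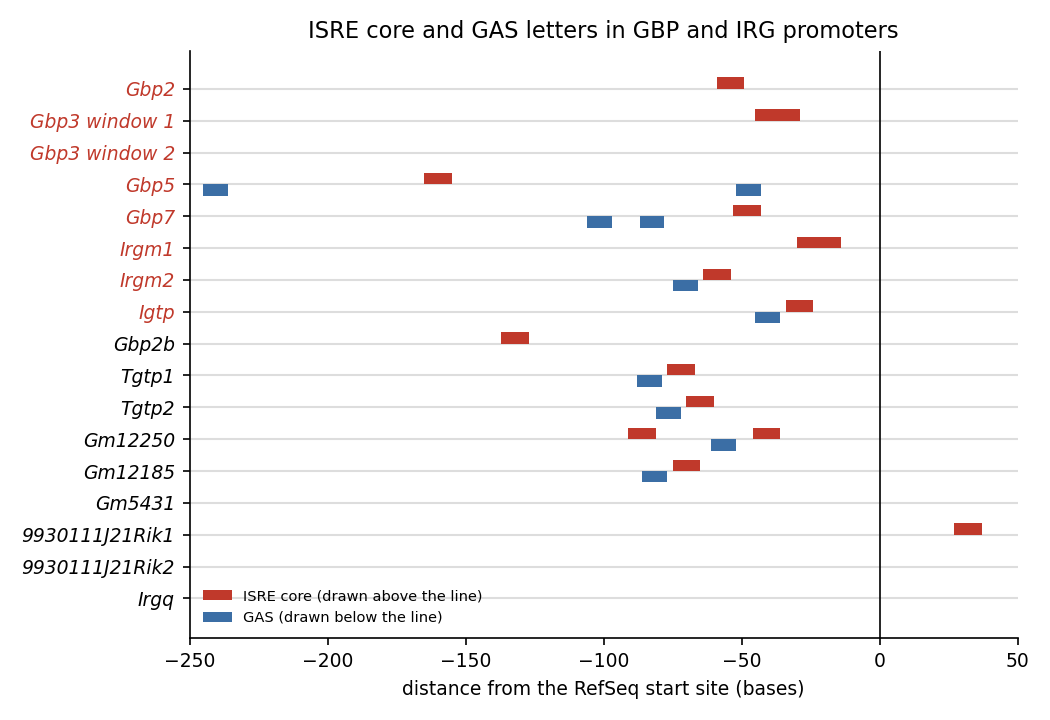
Positions of ISRE core letters (red, above each line) and GAS letters (blue, below) in the RefSeq promoter windows of 7 of the 9 genes (red names) and 9 other family genes (black names), as distance from the start site in bases. Most ISRE cores of the red-named genes begin between 100 and 1 bases before the start site, and that of Gbp5 begins at -165; the other window of Gbp3 holds neither motif.

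The targeted gene was lower in the cells labelled Top2β-null. For Top2b, wt libraries gave 18259 and 18465 normalized counts and Top2β-null libraries 3879 and 3789. The genotypes lay far apart (log2 fold change -2.26, standard error 0.0271, adjusted p = 6.6e-19, edgeR). Here and below, p comes from the quasi-likelihood test of edgeR, with Benjamini-Hochberg adjustment over every feature tested. Normalized counts are counts scaled by edgeR's TMM factors to a common library size, and the libraries held 133116830 to 149647278 counts. A gene was called when its adjusted p was under 0.05, its mean over the 4 libraries exceeded 100 normalized counts and its log2 fold change went beyond 1 or -1.

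The cells of the genotypes also differed in markers of cell types. Fibroblast markers summed to 1342600 and 1366550 normalized counts in wt and to 940826 and 947679 in Top2β-null MEF cells. Of 12 such markers, 11 had means above 100. Of these, 4 were called higher and 2 lower, against 5.27% and 4.97% of all features tested. The collagen genes Col1a1 and Col3a1 fell (log2 fold change -1.38 and -1.01), while Dcn (4.99), Thy1 (2.07), Pdgfrb (1.88) and Pdgfra (1.16) rose (edgeR), and Lum had 1 to 4 counts per library. Leukocyte markers summed to 3235 and 3295 normalized counts in wt and to 2104 and 2123 in Top2β-null MEF cells, 8 of 14 were below 10 in every library, and Tyrobp and Adgre1 were at 0 in all 4. Of the 14, 5 had both Top2β-null libraries above both wt libraries and 5 both below. Of all features tested, among them 5 of the 14, 40.3% had both above. Of these 5 tested markers, 0 were called higher and 1 lower, against 5.27% and 4.97% of all features tested. The 1 called was Cd68, a lysosomal protein gene, which fell from 1641 and 1688 to 302 and 289 normalized counts. Without it, the other 13 summed to 1594 and 1606 in wt and to 1802 and 1834 in Top2β-null MEF cells, and Csf1r, the receptor of a macrophage growth factor, had 739.8 and 767 against 962 and 978 (adjusted p = 4.6e-05, edgeR). Ptprc, the pan-leukocyte marker CD45, had 5 and 7 counts in wt and 2 and 4 in Top2β-null MEF cells, and Itgam, a myeloid integrin, went from 1 and 1 to 27 and 29 counts. Endothelial markers summed to 162 and 165 in wt and to 252 and 259 in Top2β-null MEF cells. Of 5 such markers, 4 were tested, 1 was called higher (Kdr) and 0 lower, against 5.27% and 4.97% of all features tested. Without Kdr, the other 4 summed to 92.9 and 93.7 in wt and to 48.7 and 53.5 in Top2β-null MEF cells, and Tek, an angiopoietin receptor, had 43.4 and 34.8 against 9.32 and 3.96 normalized counts (adjusted p = 7.8e-05, edgeR). Epithelial markers summed to 751 and 779 against 583 and 583, most of it Krt19, with 683 and 708 against 563 and 564 normalized counts. Krt8 fell from 45.4 and 45.4 to 6.21 and 3.96 (adjusted p = 5.3e-06, edgeR). Of 3 tested, 0 were called and 3 were lower by adjusted p alone, against 32.5% of all features tested. However, 2 of the 3 passed the filter only through the wt libraries, so that they had to differ. The part of these cell types in the results was not tested.

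Of the 9 GBP and IRG genes, 8 were higher in the MEF cells labelled Top2β-null, and these fell into 3 kinds by their wt level. Irgm1 was well expressed in wt MEF cells and rose less than 3-fold. Gbp2 and Gbp3 were low in wt MEF cells and rose by more than 10-fold. Gbp6, Gbp7, Irgm2, Igtp and Iigp1 had between 0 and 4 counts in each wt library and 73 to 426 in each Top2β-null library. Gbp5 stayed near 0 in both genotypes. In bulk RNA, a gene that is on in fewer cells and a gene with less RNA per cell cannot be told apart.

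By these cut-offs, 5 of the 9 genes were called higher (Gbp2, Gbp3, Gbp7, Irgm1 and Irgm2) and 0 lower (edgeR, 0 lower at an unadjusted p below 0.05 and 0 with DESeq2). Over all 26566 genes and repeat families tested, 5.27% were called higher and 4.97% lower. The 8 tested genes reached 10 counts in 2 or more libraries. By adjusted p alone, all 8 were higher, against 32.5% of all features tested. However, 5 of the 8 passed the filter only through the Top2β-null libraries (Gbp6, Gbp7, Irgm2, Igtp and Iigp1), so that they had to differ, and the 8 of 8 is no separate evidence. The 3 that passed it in wt as well were Gbp2, Gbp3 and Irgm1. The mean of Gbp7 fell under 100 without either Top2β-null library (4 called), and that of Igtp rose over 100 without either wt library (6 called). In each of the 8 tested, both Top2β-null libraries lay above both wt libraries, as in 40.3% of all features tested.

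**Figure D2:**
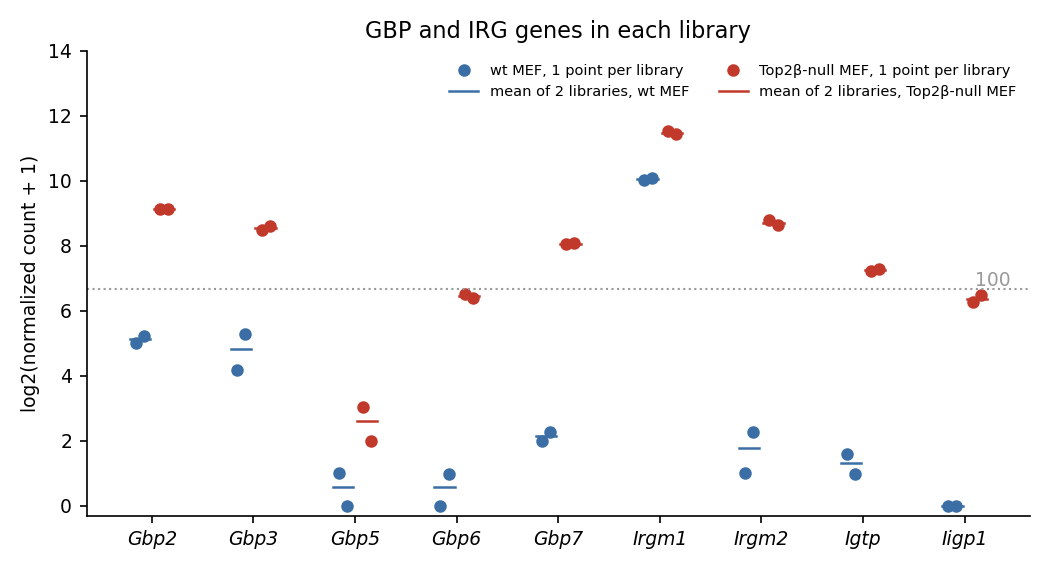
Level of each of the 9 genes as log2(normalized count + 1), with 1 point per library (wt blue, Top2β-null red), a bar at the mean of 2 libraries, and a dotted line at 100 normalized counts. The colours do not overlap for any gene; Irgm1 is the only gene above the line in wt, and Gbp5 (7.25 and 2.97 in Top2β-null MEF cells) stays far below it.

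Among the regulatory IRG genes, Irgm1, whose protein acts at the Golgi and mitochondria and in autophagy, had 1048 and 1097 normalized counts in wt and 2932 and 2800 in Top2β-null MEF cells. The genotypes did not overlap (log2 fold change 1.42, standard error 0.0491, adjusted p = 3.0e-13, edgeR). Of the normalized counts of the 9 genes together, not divided by length, it held 94.97% and 92.9% in wt, and 60.2% and 59.0% in Top2β-null MEF cells. Irgm2, its relative that restrains responses to bacterial lipopolysaccharide, had 1.01 and 3.86 normalized counts in wt and 441 and 395 in Top2β-null MEF cells (log2 fold change 7.33, standard error 0.264, adjusted p = 4.9e-13, edgeR). Its genotypes lie far apart, although wt holds only 5 counts in all. Igtp had 2.02 and 0.966 normalized counts in wt and 148 and 155 in Top2β-null MEF cells. Its adjusted p was 1.8e-10 (edgeR), but its mean of 76.4 over the 4 libraries kept it below the cut-off for a call.

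The effector IRG gene Iigp1 (ENSMUSG00000054072, chromosome 18, forward strand, from 60376027 to 60392634) had 0 counts in both wt libraries and 73 and 89 counts in the Top2β-null libraries. The exact 95% interval of its ratio, which is used below for the other genes, begins at 44.5. Set against a floor of 3 counts over both wt libraries together, which leaves out the counting error of the Top2β-null libraries, the ratio is 55.4. Its mean of 40.9 normalized counts was below the cut-off for a call (adjusted p = 1.7e-08, edgeR).

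Among the GBP genes, Gbp2, which targets vacuoles and cytosolic bacteria, had the highest level per kb of exon. Its normalized counts were 31.3 and 36.7 in wt and 558 and 566 in Top2β-null MEF cells (log2 fold change 4.04, standard error 0.131, adjusted p = 1.4e-13, edgeR). Gbp3 had 17.2 and 37.7 in wt and 355 and 388 in Top2β-null MEF cells (log2 fold change 3.75, standard error 0.201, adjusted p = 8.4e-11, edgeR). Its wt libraries were 2.20-fold apart, a wider spread than for Gbp2 or Irgm1, but the gap between genotypes was wider still. Gbp7, which is linked to oxidative and autophagic killing of bacteria, had 3.03 and 3.86 normalized counts in wt and 265 and 270 in Top2β-null MEF cells (log2 fold change 6.23, standard error 0.264, adjusted p = 4.2e-12, edgeR).

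Gbp6 was at 0 and 1 counts in wt and at 87 and 84 in Top2β-null MEF cells. Its mean of 43.6 normalized counts was below the cut-off for a call (adjusted p = 7.8e-09, edgeR). Gbp5, known for its part in inflammasome assembly, had 1 and 0 counts in wt and 7 and 3 counts in Top2β-null MEF cells and was not tested. On the same cluster of chromosome 3, its neighbours Gbp7, Gbp3 and Gbp2 each had more than 250 counts in both Top2β-null libraries. The printed Gbp5 promoter holds both an ISRE core and a GAS.

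Where wt counts were few, the ratio of Top2β-null to wt is given with its exact 95% interval, which covers counting error only. It was 175 for Gbp6 (31.1 to 6968), 169 for Irgm2 (72.2 to 523), 102 for Igtp (34.6 to 499) and 77.5 for Gbp7 (37.4 to 194). These 4 intervals overlap, so that no order among the 4 can be read. The ratio was 16.5 for Gbp2 (12.9 to 21.4) and 13.5 for Gbp3 (10.3 to 18.0), whose intervals overlap as well. Irgm1 had a ratio of 2.67 (2.54 to 2.81). Gbp5 had a ratio of 10.3, with an interval from 1.46 to 445.

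Levels between genes were compared per kb of exon (normalized counts divided by the length of all exons of the gene in GENCODE M21). In wt MEF cells, Irgm1 stood at 185 ± 6.04 per kb (SD, n = 2), far above Gbp2 at 13.5 ± 1.52 and Gbp3 at 8.40 ± 4.44. Igtp, Irgm2 and Gbp7 followed with 0.738, 0.660 and 0.614 per kb, and their libraries overlapped. In Top2β-null MEF cells, the order was Irgm1 (493 ± 16.1), Gbp2 (223 ± 2.05), Gbp3 (114 ± 7.15), Irgm2 (113 ± 8.82), Igtp (74.8 ± 2.24), Gbp7 (47.7 ± 0.662), Gbp6 (14.6 ± 0.820), Iigp1 (14.1 ± 1.52) and Gbp5 (0.770 ± 0.456). Of these, Gbp3 and Irgm2 overlapped between libraries, and so did Gbp6 and Iigp1. Irgm1 led Gbp2 by 13.7-fold per kb in wt and by 2.21-fold in Top2β-null MEF cells. These levels depend on the length used. Per kb of the longest transcript, Irgm1 stood at 279.9 (wt) and 748 (Top2β-null), with Gbp2 as before, and Iigp1 (26.2) came above Gbp6 (20.4) in the Top2β-null libraries.

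Some of these genes share sequence or exons with neighbours, so that their counts depend on how reads were assigned. Of the 150-base windows (the read length) of Gbp6 transcripts, 59.1% also occur in Gbp10 or in Gm43302, a gene model that runs through both. Gbp10 had 4 and 5 counts and Gm43302 had 56 and 52 in the Top2β-null libraries. For Gbp7 the share was 8.77%, with the pseudogene Gm43802 inside it. Irgm2 and Igtp overlap on the same strand, but share 162 exon bases and 0.437% and 0.739% of their windows. Gbp2, Gbp3, Gbp5, Irgm1 and Iigp1 shared no window of this length with another annotated transcript.

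Other genes of the families moved both ways. Of 20 listed GBP and IRG family genes in the table, 13 were tested, of which 4 passed the filter only through the Top2β-null libraries. Of the 13, 3 were called higher and 1 lower (5.27% and 4.97% of all features). Their median log2 fold change was 2.92, against 0.0027 over all features tested. This median includes the 4 that passed only through the Top2β-null libraries and so had to differ, and it is no separate evidence. Gbp9 on chromosome 5 rose from 1.01 and 2.90 to 335 and 323 normalized counts (log2 fold change 7.29, adjusted p = 1.2e-12, edgeR), and passed the filter only through the latter. Gvin1 and Gm4070, very large interferon-inducible GTPase genes on chromosome 7, had log2 fold changes of 4.28 and 4.69, but 96.2% and 93.4% of their windows occur in other transcripts, so that they cannot be counted apart. The IRG gene 9930111J21Rik2, in the Irgm1 cluster of chromosome 11, fell from 227 and 249 to 59.0 and 47.5 normalized counts (log2 fold change -2.16, adjusted p = 7.9e-09, edgeR). It shares 44.3% of its windows with other genes.

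Family genes that were not called are given by their values, and were picked for mention after these were seen. Gbp2b (Gbp1), next to Gbp2, had 29 counts over both wt libraries and 215 over both Top2β-null libraries. Tgtp1, an effector IRG gene that shares 64.9% of its windows with other genes, had 0 and 2 counts in wt and 53 and 54 in Top2β-null MEF cells. Gm12250 (Irgb10), another effector, had 3.03 and 14.5 normalized counts in wt and 13.5 and 23.8 in Top2β-null MEF cells, and the genotypes overlapped. Ifi47 (Irgd), an IRG gene left out of the family list and so counted with the neighbouring genes outside it, had 8.07 and 10.6 against 8.29 and 23.8, which overlap too. Irgq, a distant relative, had a log2 fold change of -0.19 and 2350 to 2816 normalized counts in the 4 libraries.

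**Figure D3:**
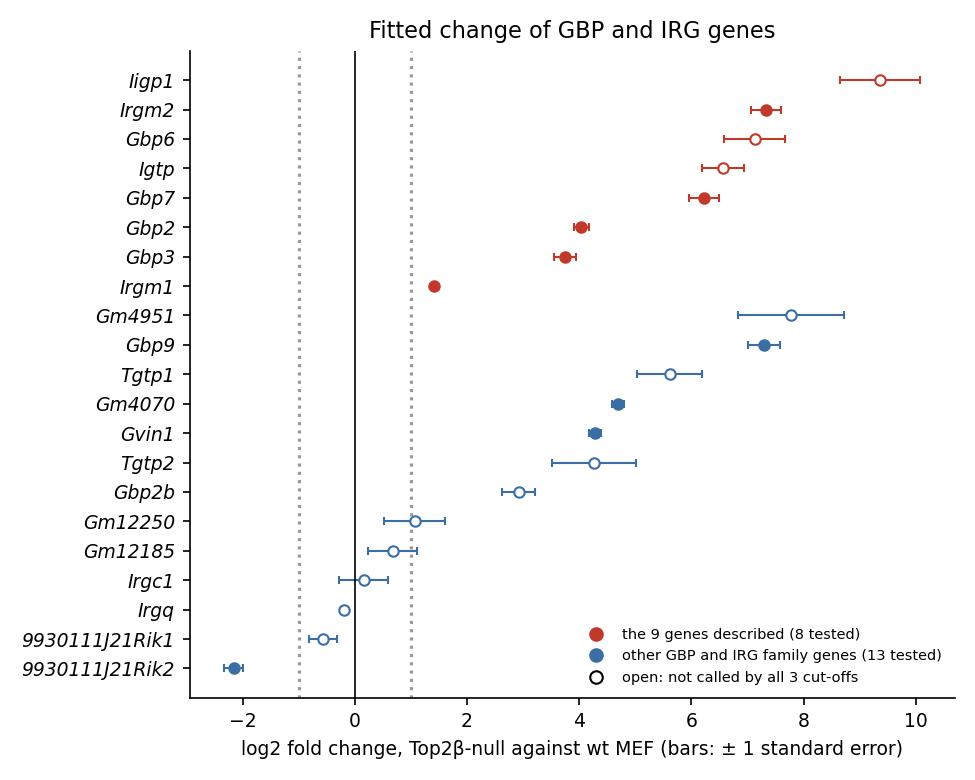
Fitted log2 fold change (points) and standard error (bars) of the 8 genes tested of the 9 (red) and of 13 other GBP and IRG family genes (blue), Top2β-null against wt MEF cells, with dotted lines at -1 and 1 and filled points for genes called. The 8 lie between 1.42 and 9.36, and the other family genes between -2.16 and 7.78; fitted values of genes near 0 counts in wt depend on the prior count and give no order.

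Among genes that act upstream, the interferon ligands listed had 10 or fewer counts in every library. Ifng, Ifnl2 and Ifnl3 had 0 counts in all 4 libraries, Ifnb1 had 1 to 3 per library in both genotypes, and Ifna4 had 4 and 0 in the Top2β-null libraries. Ifne, the listed ligand with the most counts, had 5 and 4 in wt and 10 and 10 in Top2β-null MEF cells, without overlap (adjusted p = 0.075, edgeR). Of 32 listed genes of the interferon axis, 27 were tested, 8 were called higher and 0 lower (edgeR, 2 lower at an unadjusted p below 0.05, and 0 called lower with DESeq2), against 5.27% and 4.97% of all features tested. Their median log2 fold change was 0.56, and 3 of the 27 (Ifne, Irf8 and Usp18) passed the filter only through the Top2β-null libraries. Among the signalling factors called, Stat2 had a log2 fold change of 1.15 and Stat3 of 1.62. Irf9, the DNA-binding factor that works with Stat2, rose from 824 and 838 to 3171 and 3225 normalized counts (log2 fold change 1.94). Irf1 had a log2 fold change of 1.24 and Irf7 of 1.62. Nlrc5, the activator of MHC class I genes, had 2.92, and Usp18, which damps type I interferon receptor signalling, had 7.01, from 4.04 and 5.80 to 651 and 655 normalized counts. Adjusted p of these called genes, from Stat2 to Usp18, was 3.8e-10 or less (edgeR).

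No receptor or kinase gene of the list was called. Ifngr1, the ligand-binding chain of the type II receptor, had 4684 and 4477 normalized counts in wt and 2433 and 2538 in Top2β-null MEF cells (log2 fold change -0.88, adjusted p = 7.7e-12, edgeR), short of the fold cut-off. Ifnar1 and Ifnar2 had log2 fold changes of 0.33 and 0.61, and Jak1, Jak2 and Tyk2 of 0.11, 0.24 and 0.08. Socs1, an inhibitor of JAK kinases, overlapped between genotypes, with 977 and 1043 against 953 and 993 normalized counts.

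**Figure D4:**
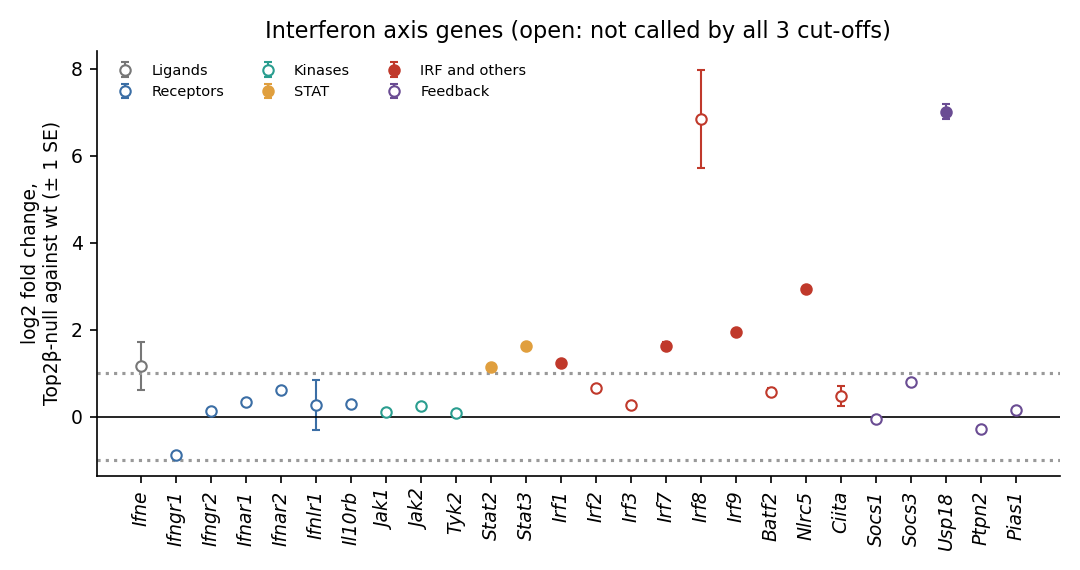
Fitted log2 fold change (points, with bars of 1 standard error) of interferon axis genes tested (26 of 27), grouped by role, with dotted lines at -1 and 1 and filled points for genes called. Stat2, Stat3, Irf1, Irf7, Irf9, Nlrc5 and Usp18 are filled; receptors and kinases lie between -0.88 and 0.61.

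Genes that work with GBP and IRG proteins were described in 3 lists. Of 16 genes that guide these GTPases to vacuoles (the ATG8 conjugation system, galectins, ubiquitin ligases), all were tested, 1 was called higher and 3 lower, against 5.27% and 4.97% of all features tested, with a median log2 fold change of -0.15. Trim21, an antibody-binding ubiquitin ligase, rose from 49.5 and 45.4 to 290.0 and 299 normalized counts. Gabarap and Gabarapl2, of the ATG8 family, fell with log2 fold changes of -2.32 and -1.61, and Lgals3, a galectin, with -1.62 (adjusted p of the 4 at most 2.0e-10, edgeR). Of 10 inflammasome genes, 6 were tested, 2 were called higher and 0 lower, against 5.27% and 4.97% of all features tested. The 2 were Casp4 (caspase-11) and Aim2, the sensors of cytosolic lipopolysaccharide and DNA. Casp4 went from 6.06 and 2.90 to 436 and 391 normalized counts (adjusted p = 5.0e-13, edgeR), and Aim2 from 6.06 and 2.90 to 346 and 373 (adjusted p = 1.1e-12, edgeR). Both passed the filter only through the Top2β-null libraries. Nlrc4 went the other way, from 132 and 119 to 78.7 and 63.4 normalized counts (log2 fold change -0.82, adjusted p = 0.0010, edgeR), short of a call. Casp1 had at most 11 counts and Nlrp3 at most 3 in any library. CaaX prenylation adds the lipid anchor of some GBP proteins. Of its 8 listed genes, 0 were called higher and 0 lower, against 5.27% and 4.97% of all features tested. With edgeR, 1 was higher and 5 were lower at an unadjusted p below 0.05, and 0 were called with DESeq2.

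Neighbouring genes outside the family list were counted apart from those in it. Of the family list, 16 genes lie within 250 kb of the 9 genes, of which 9 were tested, 1 was called higher (Gbp9) and 1 lower (9930111J21Rik2). Within the same distance, 67 genes that are not on the family list were found, of which 46 were tested, with a median log2 fold change of 0.16. Of the 46, 1 was called higher and 0 lower (edgeR, 12 lower at an unadjusted p below 0.05, and 0 called lower with DESeq2), against 5.27% and 4.97% of all features tested. By adjusted p alone, 20 were higher and 12 lower, against 32.5% of all features in each direction. The gene called was Synpo, an actin-associated protein gene 201 kb from Iigp1, with 1284 and 1253 normalized counts in wt and 9734 and 9574 in Top2β-null MEF cells. Gm43302, Gm43802 and Mir6381 overlap Gbp6, Gbp7 and Gbp2, and had log2 fold changes of 6.47, 5.36 and 4.12 at means below 100 normalized counts. How reads were divided between them and the genes they overlap was not tested. Myoz3 and Gm6960, on the chromosome of Iigp1, had 0 counts in both wt libraries and 18 and 16, and 14 and 17, in Top2β-null MEF cells. These 5 genes were picked after their values were seen.

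**Figure D5:**
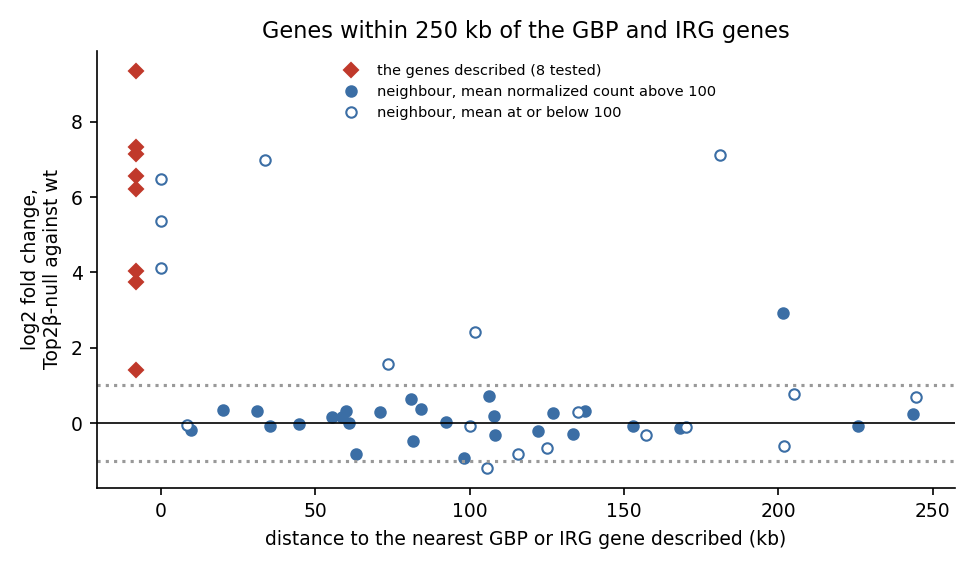
Fitted log2 fold change against distance to the nearest of the 9 genes in kb, for the 46 neighbouring genes tested, without the listed family genes (blue circles, filled where the mean normalized count is above 100) and for the 8 genes themselves (red diamonds, drawn left of 0), with dotted lines at -1 and 1. Among filled circles, Synpo (2.93) is alone above 1.

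The 5 genes whose profile over the 4 libraries was nearest to the mean of the 8 genes tested were 6530402F18Rik, Lgals3bp, Samd5, Lama2 and Il15. Likeness was the Euclidean distance of log2(normalized count + 1) from its wt mean, over 16640 genes with a mean above 100 normalized counts, and the distances were 0.0621 to 0.237. With 2 groups of 2 libraries, such a distance mostly compares the size of the genotype difference, which was 5.07 on this scale for the 8 genes. Il15, a cytokine, had 4.04 and 6.76 normalized counts in wt and 233 and 221 in Top2β-null MEF cells. Lgals3bp, a secreted glycoprotein that binds galectin-3, had 103 and 122 against 3902 and 3916.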

How the data were processed

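Read pairs were trimmed by the authors (Trim Galore!) and mapped to mm10 by STAR, keeping reads with many alignments, and used TEtranscripts to count reads on Gencode genes and repeats. The authors deposited these counts unscaled, as whole numbers. The sources used here do not say how reads shared by related genes were counted, or whether strand was used.

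Gene identifiers were matched to GENCODE M21 without version number (54495 of 54842). The paper's methods name an earlier GENCODE release for the counting, so that lengths and shared windows may differ from the gene models counted. In R 4.3.3, edgeR 4.0.16 was fitted to 26566 features that reached 10 counts in 2 or more libraries, with TMM factors over genes and repeats and genotype as the only term. P-values were adjusted over all features. Standard errors were taken from the size of the log2 fold change over the root of F. Replicates were not copies of each other (chi-square per gene 3.29 in wt and 2.82 in Top2β-null), and all 4 libraries were used. The fits were tested on simulated data.

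The 9 genes and the lists were chosen with earlier results of these data known. Named were the 9 genes, Top2b, the called genes of each list (except 1 not reported here) and the 5 nearest profiles; other names were picked after their values were seen. Alternatives were DESeq2 1.42.0, 2 other scalings, 2 other filters, a replicate block, adjusted p alone, the longest transcript as length, and leaving out each library. Protein sequences were not used here.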

Additional observations from a re-analysis of the deposited data

How the results depend on the processing

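Over 73 alternative values, the log2 fold changes of the 8 genes tested kept their direction and an adjusted p below 0.05 (edgeR or DESeq2). With each library left out, they ranged from 1.38 to 1.45 for Irgm1, 3.93 to 4.16 for Gbp2, 3.30 to 4.43 for Gbp3, 6.07 to 6.41 for Gbp7, 6.31 to 9.42 for Gbp6, 6.71 to 8.52 for Irgm2, 6.14 to 7.12 for Igtp and 9.24 to 9.50 for Iigp1. The number called higher was 4 without either Top2β-null library and 6 without either wt library, since the mean over fewer libraries moves across 100.

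With adjusted p below 0.05 as the only condition, 8 of the 9 genes were higher. So were 7 family genes (2 lower), 20 interferon axis genes (2 lower), 6 vacuole targeting genes (9 lower), 1 prenylation gene (5 lower) and 20 neighbouring genes (12 lower), and 1 inflammasome gene was lower. Over all features, 32.5% were higher and 32.5% lower by this condition. Requiring 100 counts of each library leaves fewer genes to test: 1 of the 9 genes (Irgm1) was called higher, and 0 family genes were called higher and 0 lower, 0 vacuole targeting genes higher and 0 inflammasome genes higher.

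With the replicate number as a block, 5 of the 9 genes were called higher, and no other count changed. Libraries of the same number did not deviate together (correlation -0.00245 over features), and the labels give no pairing. Scaling to the total count moved the median of all features by 0.070 and no count of calls. Gbp5, with 11 counts in all, did not pass the filter on low counts.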
